A study of Homo sapiens with 8 samples.

Results

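The proteasome is the protease that degrades ubiquitin-tagged proteins, and its genes were compared between LUHMES neurons whose mitochondria had been inhibited and neurons given vehicle. The set holds every protein-coding gene whose symbol is PSMA, PSMB, PSMC, PSMD, PSME, PSMF or PSMG followed by a digit, plus POMP. It has 49 members among 62826 listed genes, of which 19872 are protein-coding. The rule uses symbols and no measured value, but it was chosen with earlier results of these data known. The 54 other rows whose symbols start the same way (pseudogenes, antisense genes and coding genes of other function) were left out. LUHMES is an established, conditionally immortalised line from human mesencephalon. All 8 cultures were wild type and had been differentiated for 6 days in medium with N-2 supplement, 1 mM dibutyryl-cAMP, 2 ng/mL GDNF and 1 µg/mL tetracycline. The treated group received 25 µM antimycin A and 10 µM oligomycin for 8 h (n = 4), and the vehicle group received DMSO (n = 4). Within a group, each library came from its own differentiation batch, numbered 2 to 5. The same numbers stand in both groups, and the labels do not say whether same-numbered libraries shared a batch. The series text states 4 technical replicates per batch. A single line was used, so the p-values measure the spread between its batches.

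The 20S core particle is a barrel of stacked rings, with outer alpha rings that gate the entrance and inner beta rings that hold the catalytic sites. The 19S regulatory particle caps the barrel: a base ring of ATPases unfolds the substrate and opens the gate, and non-ATPase subunits bind ubiquitin chains and remove them. Other activators can replace the cap, and dedicated chaperones build the rings. The assembled particle holds its subunits in fixed proportions, and in mammals their transcription is raised together by NFE2L1 when the proteasome is impaired. Antimycin A blocks respiratory complex III and oligomycin blocks the mitochondrial ATP synthase. Unfolding by the 19S base consumes ATP.

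The libraries held 93.8 to 109 M estimated reads in treated cells and 93.7 to 110.0 M in vehicle cells. Vehicle replicate 2 stood apart: on the second principal component, which carried 10.3% of the variance, its score was -54.8, while its 3 group members scored 14.5 to 22.9. Its members sat a median of 0.14 below the rest of its group on the log2 CPM scale, where the median coding gene sat 0.013 below. CPM is a gene's reads scaled to the size of its library, here with TMM factors, and TPM also corrects for transcript length. Where leaving it out changed a call or a value by much, the value without it is given too. All 10 pan-neuronal markers were at or above 1 TPM on average (summed TPM 4387 to 4495 in treated cells and 4844 to 6229 in vehicle cells). Of 12 dopaminergic markers, 5 were at or above that level, while LMX1A, FOXA2 and ALDH1A1 had under 10 reads in every library. Summed cycling markers were 107 to 114 TPM in treated cells and 151 to 227 TPM in vehicle cells, and microglia and blood markers stayed at or under 0.136 TPM. Astrocyte markers summed to 14.3 to 15.9 TPM in treated and 2.10 to 2.51 TPM in vehicle cells, with 1 of 5 at or above 1 TPM on average and GFAP, AQP4 and S100B under 10 reads in every library. Oligodendrocyte-lineage markers summed to 29.1 to 36.6 TPM in treated and 40.2 to 64.6 TPM in vehicle cells. The part of these differences in the results was not tested. In bulk RNA, fewer cells of a type and less RNA per cell cannot be told apart.

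Proteasome genes moved little. The largest and most stable changes were falls in the nuclear activator PSME3, to 0.577 times the vehicle level, and in the assembly chaperone PSMG1, to 0.675 times. Of 44 members that passed the filter on low counts, 9 were higher and 6 lower in treated cells by edgeR's quasi-likelihood test at an adjusted p of 0.05. That is 34.1% of the members, against 59.2% of the 14625 coding genes tested (30.1% higher and 29.2% lower), which is a share of calls below the background. Of all 19785 genes tested, 57.9% were called, 27.7% higher and 30.2% lower. On simulated data the test recovered 6 of 100 genes changed by a log2 size of 0.3. Few genes were changed there, while 57.9% of genes were called here, so that rate does not measure the recovery of members. A member not called may still have changed. None of the 15 called members reached a log2 fold change of 1 in size, a size that 13.4% of coding genes reached with a call. The median log2 fold change was 0.11 over the members and 0.02 over coding genes, and its median size was 0.17 for members and 0.35 for coding genes. The member median was 0.07 without vehicle replicate 2, 0.01 with library totals alone and -0.06 with limma on TPM without that library. CPM values of the groups did not overlap for 21 of 44 members and for 54.5% of coding genes.

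Which small changes were called, and whether rises or falls prevailed among the calls, depended on the scaling and the test. With library totals alone and no TMM factors, 1 member was higher and 9 were lower, where 23.0% of coding genes were higher and 35.0% lower. With limma on log2(TPM + 1), 0 members were higher and 6 lower, the same counts as at an unadjusted p of 0.05, where 19.3% of coding genes were higher and 27.4% lower. The same limma fit without vehicle replicate 2 called 2 members higher, PSMA7 and PSMC5, and 14 lower, beside 23.9% of coding genes higher and 45.4% lower. With the replicate number as a block in edgeR, 9 members were higher and 5 lower, beside 28.2% and 27.2% of coding genes. Only the falls of PSME3, PSMG1, PSMG4 and PSMB2 kept their call under all 18 alternative settings. Each of the 9 rises was lost under at least 1 of them, and no called member turned direction.

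**Figure D1:**
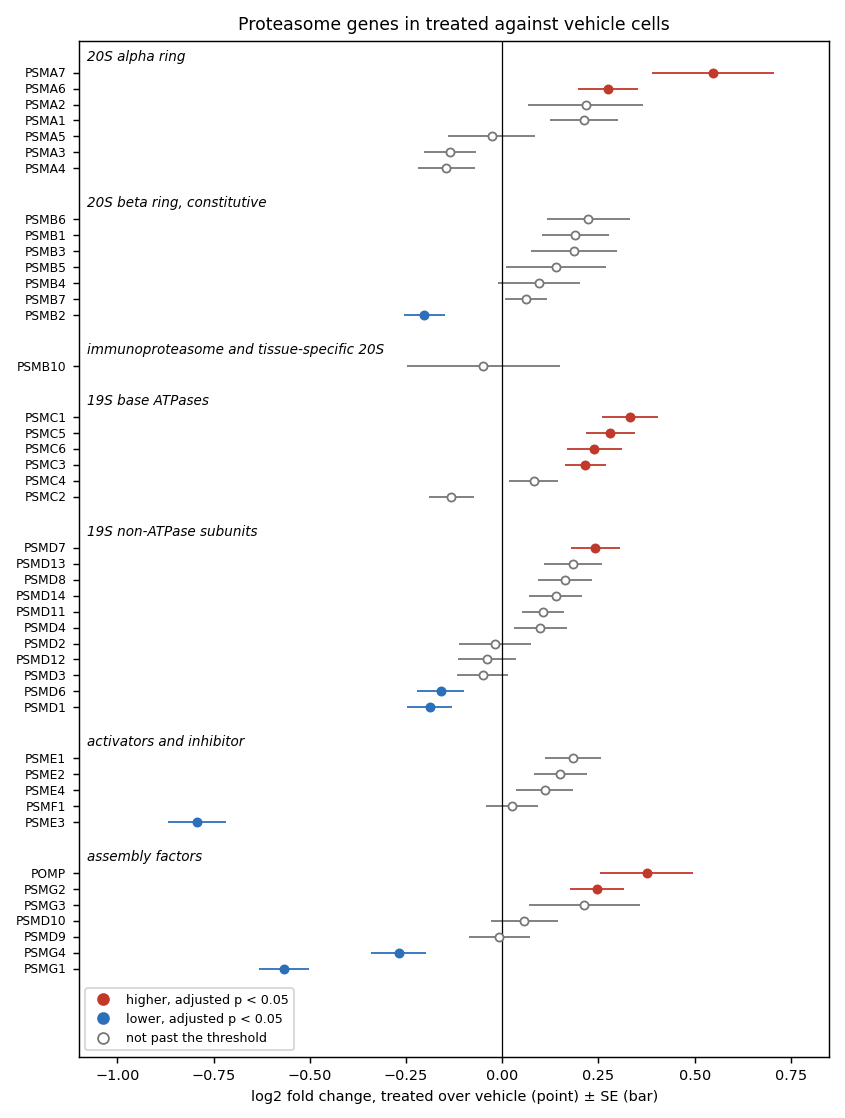
Treated over vehicle log2 fold changes of the 44 tested members, one row a gene, grouped by role; points are edgeR estimates, bars are 1 SE, and filled points passed an adjusted p of 0.05. PSME3 at -0.79 and PSMG1 at -0.57 lie apart from the other members, and 4 of the 6 base ATPases lie at the right with filled points.

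Among activators and the inhibitor, 1 of 5 members was called, and it fell. PSME3, the subunit of the nuclear activator that opens the 20S barrel without ubiquitin (ENSG00000131467.12, hg38 chr17:42824385-42843758, plus strand), had 115, 114, 113 and 111 CPM in treated cells, against 226, 182, 189 and 189.6 CPM in vehicle cells. The treated libraries lay within a few CPM of each other, all below every vehicle library. The means were 113 ± 2.02 and 197 ± 19.7 CPM (SD, n = 4 each), a log2 fold change of -0.79 (SE 0.07, adjusted p = 1.09e-05, edgeR), and the estimate ran from -0.89 to -0.70 over the alternatives. PSME3 shares 8966 bases with BECN1 on the opposite strand, a gene with means of 5441 reads in treated and 5682 in vehicle libraries, while PSME3 itself had 11040 and 20502. Strand use in counting was not given in the sources used here, so it is not known whether reads of such opposite pairs were told apart. The partner subunits of the cytosolic activator, PSME1 and PSME2, had log2 fold changes of 0.18 and 0.15, and neither passed the test (adjusted p = 0.0526 and 0.0845, edgeR). PSME4, a large activator known for its role at acetylated histones, had 0.11, and PSMF1, a 20S-binding protein first described as an inhibitor, had 0.02, also without passing it.

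Assembly factors moved in both directions: 2 of the 7 tested were higher and 2 were lower, a share of 57.1% that is near the background of 59.2%. PSMG1 and PSMG2 form a pair that starts the alpha ring, and their genes moved oppositely. PSMG1 (ENSG00000183527.12, chr21:39174769-39183851, minus strand) had 18.7, 16.9, 18.9 and 18.9 CPM in treated cells and 27.1, 26.3, 27.5 and 27.9 CPM in vehicle cells. Every treated library lay below every vehicle library, by more than the spread of either group (18.4 ± 0.981 and 27.2 ± 0.701 CPM). Its log2 fold change was -0.57 (SE 0.06, adjusted p = 4.21e-05, edgeR). PSMG2 had 36.0, 35.3, 38.5 and 41.9 CPM in treated cells and 31.8, 30.7, 32.9 and 32.6 CPM in vehicle cells, with no overlap. Its log2 fold change was 0.25 (SE 0.07, adjusted p = 0.0125), a call lost with library totals, with TPM, and with TPM without vehicle replicate 2.

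PSMG3 and PSMG4 form the second chaperone pair of the alpha ring. PSMG4 (ENSG00000180822.12, chr6:3231403-3303373, plus strand) had 8.57, 8.91, 8.35 and 8.20 CPM in treated cells, against 9.63, 10.1, 10.8 and 10.5 CPM in vehicle cells. The groups did not overlap, and the log2 fold change was -0.27 (SE 0.07, adjusted p = 0.00879, edgeR). It was -0.55 with an offset for transcript length and -0.57 with limma on TPM, and ran from -0.69 to -0.25 over the alternatives. Its means of 827 reads in treated and 1079 in vehicle libraries stand beside 108245 and 152711 reads of TUBB2B, which overlaps it by 328 bases on the opposite strand. SLC22A23 overlaps it by 34412 bases, also on the opposite strand, with 9787 reads in treated and 8232 in vehicle libraries. PSMG3 had a log2 fold change of 0.21, and 0.07 without vehicle replicate 2, and did not pass the test.

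POMP brings beta subunits to the alpha ring and is the first protein the finished core degrades. It (ENSG00000132963.9, chr13:28659104-28678925, plus strand) had 76.8, 75.1, 76.3 and 96.6 CPM in treated cells and 49.1, 63.6, 68.6 and 69.1 CPM in vehicle cells. The groups did not overlap, but the highest treated and the lowest vehicle library each stood away from their group. The log2 fold change was 0.37 (SE 0.12, adjusted p = 0.0218, edgeR), it was 0.27 without vehicle replicate 2, and the call was lost under 5 alternatives, among them leaving out treated replicate 5. The chaperones of the 19S base, PSMD9 and PSMD10, had log2 fold changes of -0.01 and 0.06 and did not pass. PSMD5, a further chaperone of the base, was listed at 1, 0, 0 and 2 reads in treated libraries and 2, 0, 1 and 0 in vehicle libraries, too few to test. Whether that is its level or a failed estimate is not known.

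In the beta ring, the 3 catalytic subunits did not pass the test, and the single call was a fall of PSMB2, a structural subunit. PSMB2 (ENSG00000126067.12, chr1:35599544-35641844, minus strand) had 143, 138, 143 and 134 CPM in treated cells, against 165, 157, 162 and 159 CPM in vehicle cells. All treated libraries were below all vehicle libraries, with a log2 fold change of -0.20 (SE 0.05, adjusted p = 0.00789, edgeR). PSMB5, which carries the chymotrypsin-like site, had 89.2, 81.4, 86.0 and 77.4 CPM in treated cells and 54.0, 81.5, 84.6 and 82.9 CPM in vehicle cells. The groups overlapped, and only vehicle replicate 2 stood well below the rest. The log2 fold change was 0.14 (adjusted p = 0.378), and 0.01 without that library.

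PSMB6, which carries the caspase-like site, had 52.1, 46.3, 50.9 and 45.9 CPM in treated cells and 32.5, 44.8, 45.5 and 44.4 CPM in vehicle cells. These groups did not overlap, yet the log2 fold change of 0.22 did not pass the test (adjusted p = 0.0993, edgeR), and it was 0.12 without vehicle replicate 2. PSMB7, which carries the trypsin-like site, had 93.1, 89.4, 93.7 and 93.7 CPM in treated cells and 84.0, 89.8, 89.9 and 90.5 CPM in vehicle cells. The ranges overlapped at treated replicate 3, with a log2 fold change of 0.06 (adjusted p = 0.349). The structural subunits PSMB1, PSMB3 and PSMB4 had 0.19, 0.19 and 0.10, and none passed. Without vehicle replicate 2 their values were 0.10, 0.07 and -0.01.

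The inducible catalytic subunits of the immunoproteasome, which replace the constitutive ones after interferon signalling, were low (PSMB10) or close to 0 reads (PSMB8 and PSMB9). PSMB10 had 2.19, 1.90, 2.13 and 1.89 CPM in treated cells and 1.25, 2.24, 2.54 and 2.36 CPM in vehicle cells. The groups overlapped (log2 fold change -0.05, adjusted p = 0.844, edgeR), and the value was -0.23 without vehicle replicate 2 (adjusted p = 0.0706). A same-strand coding gene, AC040162.1, shares 1516 bases with PSMB10. It had means of 280 reads in treated and 306 in vehicle libraries, beside 198 and 224 for PSMB10, so their split is uncertain. The retained-intron transcript PSMB10-203 held 90.8% of PSMB10 reads in treated and 89.6% in vehicle cells. PSMB8 had 0, 4, 0 and 0 reads in treated libraries and 1, 1, 1 and 2 in vehicle libraries, and PSMB9 had a single read, in treated replicate 4. PSMB11, the thymus subunit, had a single read in vehicle replicate 4, and PSMA8, the testis subunit, had 1 read in each group. A change in these 4 genes was not detectable at this depth.

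In the alpha ring, 2 of 7 subunits were higher. PSMA7 (ENSG00000101182.15, chr20:62136735-62143440, minus strand) had 139, 131, 130.1 and 135 CPM in treated cells and 58.4, 98.6, 104 and 105 CPM in vehicle cells. The groups did not overlap, and vehicle replicate 2 lay far below the other 3. The log2 fold change was 0.55 (SE 0.16, adjusted p = 0.0129, edgeR), and 0.38 without that library (adjusted p = 0.000118). PSMA6 (ENSG00000100902.11, chr14:35278633-35317493, plus strand) had 95.2, 91.3, 97.7 and 110.5 CPM in treated cells and 73.2, 81.9, 85.5 and 85.6 CPM in vehicle cells. Treated and vehicle values did not overlap, with a log2 fold change of 0.28 (SE 0.08, adjusted p = 0.0120). A same-strand coding gene, AL121594.1, spans the whole of PSMA6 and had means of 678 reads in treated and 1746 in vehicle libraries, so the split of reads between them is uncertain. Both rises missed the threshold with library totals alone (adjusted p = 0.0579 for PSMA7 and 0.136 for PSMA6). The other 5 subunits did not pass: PSMA2 had 0.22, PSMA1 0.21, PSMA5 -0.03, PSMA3 -0.14 and PSMA4 -0.14. Without vehicle replicate 2, PSMA2 had 0.07, PSMA1 0.13 and PSMA5 -0.14, and PSMA3 was called lower (-0.18, adjusted p = 0.0130).

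The base ring had 4 of its 6 ATPases higher and none called lower, a share of 66.7% called that is near the background of 59.2%. PSMC1 (ENSG00000100764.14, chr14:90256495-90275429, plus strand) had 82.5, 79.2, 80.3 and 94.8 CPM in treated cells and 62.9, 66.6, 71.1 and 67.0 CPM in vehicle cells. All treated libraries were above all vehicle libraries (log2 fold change 0.33, SE 0.07, adjusted p = 0.00307, edgeR). PSMC1 was the only member called higher with library totals alone (0.23, adjusted p = 0.0395). Its processed pseudogene PSMC1P1 was counted at 51.7 CPM in treated and 41.7 CPM in vehicle cells, a log2 fold change of 0.31, so the division of reads between the copies is uncertain.

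PSMC5 (ENSG00000087191.14, chr17:63827152-63832026, plus strand) had 120.1, 118, 118 and 112 CPM in treated cells, against 87.6, 97.5, 103 and 97.4 CPM in vehicle cells. The groups did not overlap, with a log2 fold change of 0.28 (SE 0.06, adjusted p = 0.00368, edgeR). FTSJ3 lies across it on the opposite strand, with means of 4424 reads in treated and 6457 in vehicle libraries, beside 11410 and 10160 for PSMC5. PSMC3 and PSMC6 were also higher, by 0.22 (adjusted p = 0.00568) and 0.24 (adjusted p = 0.0153). PSMC4 had 0.08 and did not pass. PSMC2 had -0.13 and did not pass with TMM factors (adjusted p = 0.0763), but was called lower under 6 alternatives, TPM and library totals among them.

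Of the 11 non-ATPase subunits of the 19S particle, 1 was higher and 2 were lower. PSMD7, the partner of the deubiquitinase in the lid, had 88.8, 85.2, 90.1 and 100.2 CPM in treated cells and 79.9, 74.6, 77.2 and 76.3 CPM in vehicle cells. No treated library fell within the vehicle range, with a log2 fold change of 0.24 (SE 0.06, adjusted p = 0.00855, edgeR). PSMD1, the largest scaffold subunit of the base (ENSG00000173692.14, chr2:231056860-231172830, plus strand), had 148, 147, 149 and 164 CPM in treated cells and 174, 167, 177 and 176 CPM in vehicle cells. Treated replicate 5 came closest to the vehicle range but stayed below it (log2 fold change -0.19, SE 0.06, adjusted p = 0.0190), and the call was lost under 5 alternatives. PSMD6, a lid subunit, had 73.9, 69.3, 73.0 and 79.1 CPM in treated cells and 84.8, 78.7, 84.1 and 82.4 CPM in vehicle cells. These groups overlapped, and the log2 fold change of -0.16 (adjusted p = 0.0431) lost its call under 10 alternatives.

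The remaining 8 did not pass the test. PSMD14, the deubiquitinase that frees ubiquitin chains from the substrate, had a log2 fold change of 0.14. The ubiquitin receptor PSMD4 had 0.10, and PSMD2, where shuttle factors dock, had -0.02. Without vehicle replicate 2 these 2 had 0.04 and -0.11. Among lid subunits PSMD13 had 0.18, PSMD8 0.16, PSMD11 0.11, PSMD12 -0.04 and PSMD3 -0.05. Without vehicle replicate 2, PSMD8 (0.22, adjusted p = 0.00394) and PSMD11 (0.13, adjusted p = 0.0329) were called higher, and PSMD13 had 0.12.

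**Figure D2:**
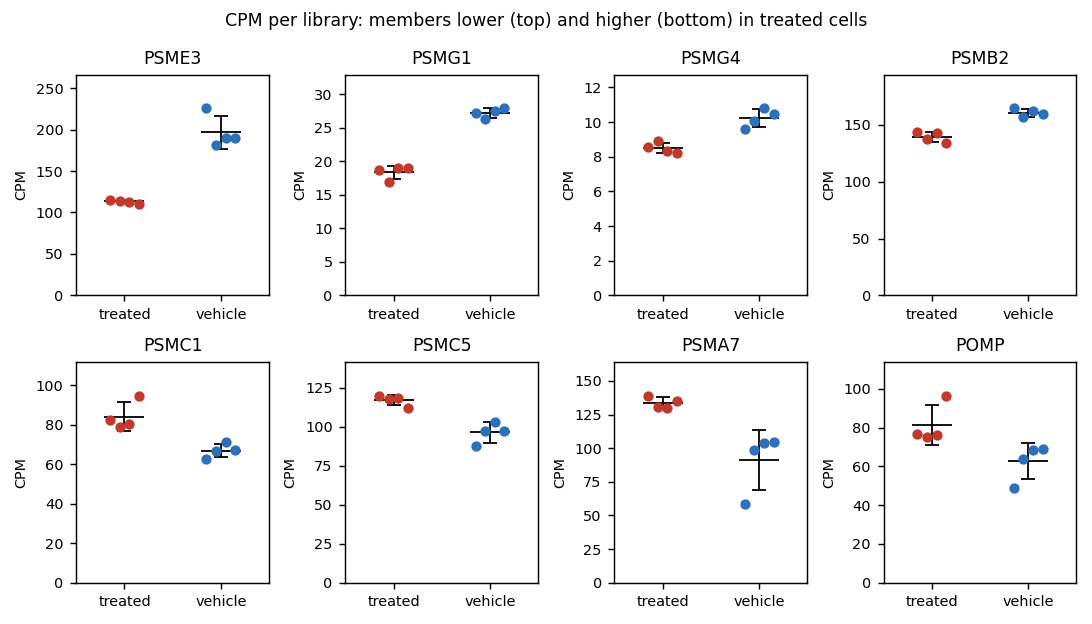
TMM-scaled CPM of 8 members, one panel a gene, treated libraries left and vehicle libraries right; points are libraries and black marks are the mean ± SD (n = 4 each). The upper panels (PSME3, PSMG1, PSMG4, PSMB2) show the 4 falls that held under every alternative, and in the PSMA7 panel vehicle replicate 2 sits at 58.4 CPM, under the other vehicle libraries.

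Libraries of a group differed in their member median. In treated replicate 3 it lay 0.07 below the rest of its group and in treated replicate 5 it lay 0.04 above, while the coding median lay at 0.015 and -0.012 on the log2 CPM scale. In vehicle replicate 4 the member median lay 0.09 above the rest of its group. Single members differed within a library: in treated replicate 5 POMP was the highest of its group, at 96.6 CPM, and PSMB5 the lowest of its group, at 77.4 CPM. In vehicle replicate 2, 9 members were low by Dixon's rule for an outlying value, among them PSMA7, PSMB5, PSMB6 and PSMA2. Without that library 11 members were higher and 7 lower, where 32.9% of coding genes were higher and 32.2% lower.

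**Figure D3:**
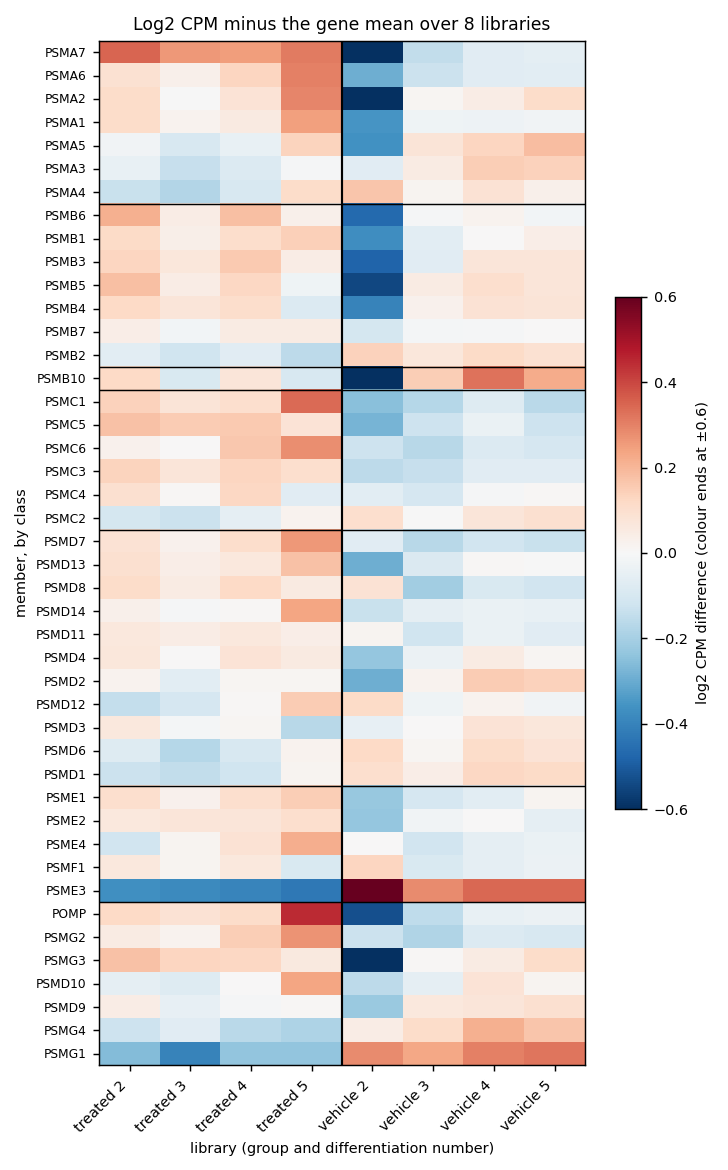
Log2 CPM minus the gene's mean over all 8 libraries for the 44 tested members (rows, grouped by role), treated libraries left and vehicle libraries right; colours end at -0.6 and 0.6. The column of vehicle replicate 2 is low for many 20S genes and high for PSME3, which had 226 CPM there.

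On the TPM scale, which corrects for length, members can be set against each other. Among the 31 constitutive subunits of the 26S particle the median level was 136 TPM in treated and 137 TPM in vehicle cells. The lowest in vehicle cells was PSMA5, with 61.7 TPM in treated and 59.0 TPM in vehicle cells, and the highest there was PSMB4, with 274 and 270 TPM. In treated cells PSMA7 was highest, at 319 TPM, against 232 TPM in vehicle cells. Levels of these subunits spanned 5.97-fold in treated and 4.58-fold in vehicle cells.

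Summed over a role, the groups overlapped in all roles but the activators, with vehicle replicate 2 the lowest library of its group in each. The alpha subunits summed to 1246 ± 88.1 TPM in treated cells and 1146 ± 272 TPM in vehicle cells (SD, n = 4 each). The vehicle spread came from replicate 2, at 741 TPM against 1258 to 1316 TPM in the other 3, and without it the treated to vehicle ratio was 0.972 in place of 1.09. The constitutive beta subunits summed to 1344 ± 27.4 TPM in treated cells and 1307 ± 293 TPM in vehicle cells, and their ratio of 1.03 became 0.925 without vehicle replicate 2. All treated libraries (1310 to 1368 TPM) then lay below the other vehicle libraries (1422 to 1497 TPM). The base ATPases summed to 752 ± 30.3 and 695 ± 66.0 TPM, and the non-ATPase subunits to 1431 ± 49.8 and 1439 ± 173 TPM, in treated and vehicle cells. Without that library the ratio was 1.03 in place of 1.08 for the base and 0.939 in place of 0.994 for the non-ATPase subunits. Assembly factors summed to 547 ± 51.2 TPM in treated cells and 517 ± 117 TPM in vehicle cells, a ratio of 1.06 that became 0.951. The activators and inhibitor were the only role whose groups did not overlap over all 8 libraries, with 355 ± 6.68 TPM in treated cells and 409 ± 24.7 TPM in vehicle cells, a ratio of 0.870, and 0.847 without that library. All 49 members together took 0.365% of estimated reads in treated and 0.378% in vehicle cells. Vehicle replicate 2 held 0.332%, while vehicle replicates 3 to 5 held 0.388 to 0.397%, above every treated library (0.350 to 0.379%). On summed TPM the treated to vehicle ratio of all members was 1.03 over all 8 libraries.

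**Figure D4:**
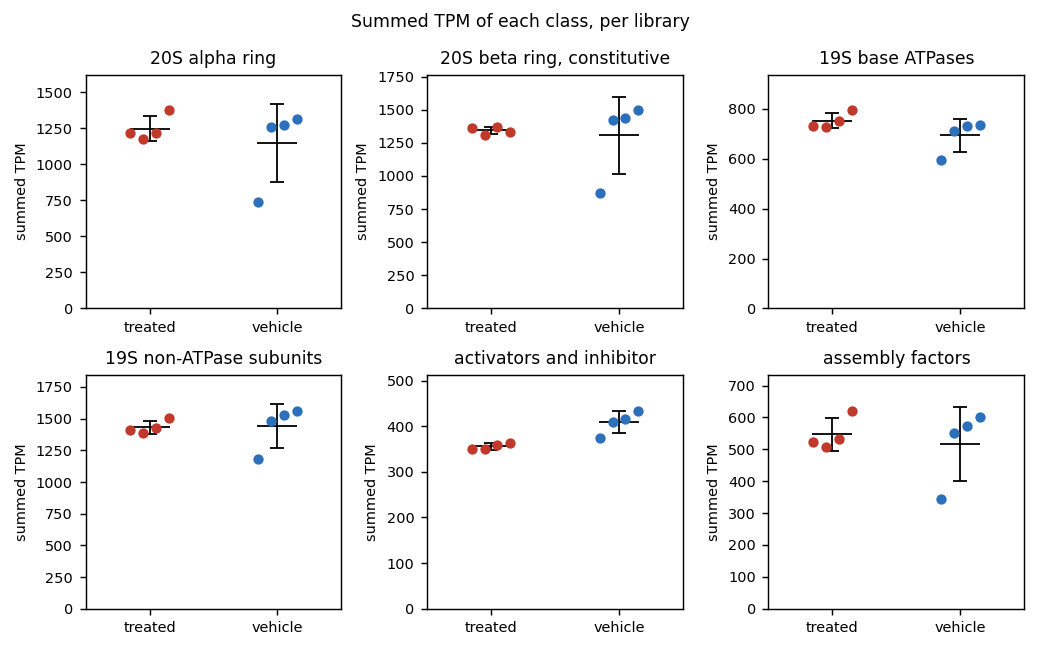
Summed TPM of each role per library, one panel a role, treated libraries left and vehicle libraries right; black marks are the mean ± SD (n = 4 each) and axes start at 0. The groups separate for activators and inhibitor, with 351, 349, 358 and 364 TPM in treated cells against 375, 410, 416 and 434 TPM in vehicle cells, and overlap in the other 5 panels.

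A gene's reads are also divided among its transcripts, and some of these are annotated as targets of nonsense-mediated decay or as keeping an intron. The share of reads on decay-annotated transcripts could be tested in 21 members by limma on the log2 share, and it was higher in 4 and lower in 0 (at an unadjusted p of 0.05, higher in 8 and lower in 1). That stands beside 12.7% higher and 2.71% lower among 3833 coding genes. The share of PSME3 was 2.40, 3.17, 3.42 and 2.77% in treated libraries, against 0.121, 0.293, 0.214 and 0.0948% in vehicle libraries. Every treated library held a larger share than any vehicle library, on a mean of 325 reads in treated and 36.6 in vehicle libraries, with a log2 change of 4.17 (SE 0.36, adjusted p = 0.000485, limma). Most of it lay on 1 transcript, PSME3-204, with 2.85 ± 0.480% in treated and 0.162 ± 0.0935% in vehicle cells, a small part of the gene's reads.

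PSMG2, PSMD2 and PSMA3 were the other 3. PSMG2 had decay-annotated shares of 5.22, 4.54, 8.32 and 4.14% in treated cells and 0.856, 1.10, 0.949 and 1.58% in vehicle cells (log2 change 2.33, adjusted p = 0.00292, limma). Annotated transcripts carried 75.3% of the PSMG2 reads, and shares are of those, while they carried all reads of the other 3. PSMD2 had 0.908, 0.836, 0.970 and 0.894% in treated cells and 0.238, 0.249, 0.233 and 0.427% in vehicle cells (1.70, adjusted p = 0.00314). PSMA3 had 2.95, 3.0, 3.96 and 3.06% in treated cells and 1.68, 1.27, 1.09 and 0.907% in vehicle cells (1.44, adjusted p = 0.00660). The groups overlapped in none of these genes, and all 4 calls held under 10 of 10 alternatives. The gene levels of the 4 differed in direction, with PSME3 lower, PSMG2 higher, and PSMD2 and PSMA3 not called.

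The share of retained-intron transcripts was higher in 2 and lower in 1 of 32 members (at an unadjusted p of 0.05, higher in 9 and lower in 1), beside 12.8% higher and 3.58% lower among 6054 coding genes. Without vehicle replicate 2 the call was made in 8 of 31 members, beside 25.5% of coding genes. PSMD6 had 12, 13.7, 13.4 and 11.1% in treated cells, against 8.21, 8.81, 8.69 and 7.55% in vehicle cells (log2 change 0.66, adjusted p = 0.00657, limma). PSMD3 had 4.98, 5.71, 5.51 and 5.16% in treated cells, against 4.05, 3.69, 2.81 and 3.08% in vehicle cells (0.69, adjusted p = 0.0118). The groups did not overlap in either gene. In PSMC2 the retained-intron transcript PSMC2-205 was listed at 0 in every treated library and held 1.76 ± 0.544% of the annotated reads in vehicle cells, where annotated transcripts carried 85.7% of the gene's reads.

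The share of each single transcript was tested as well. At least 1 transcript passed in 19 of 44 members by limma, beside 34.3% of 11746 genes, and in 10 members with a replicate block, beside 11.9%. In PSMG4, transcript PSMG4-208 held 19.8 ± 0.697% in treated and 8.78 ± 0.820% in vehicle cells, while PSMG4-206 held 22.6 ± 0.857% and 40.2 ± 4.59% (adjusted p = 0.00173 and 0.00481, limma). The test diffSpliceDGE, run on transcripts, called 5 members, PSMA6, PSMC6, PSME3, PSMB7 and PSMC2, against 8.61% of the same genes, and it made many false calls on simulated data. Of the 2 transcripts with its smallest p in each of these genes, PSME3-204, PSMC2-205, PSMB7-206, PSMB7-201, PSMA6-202 and PSMC6-206 also passed by limma, and PSMA6-216, PSME3-202, PSMC6-212 and PSMC2-204 did not. PSMB7-206 held 1.97 ± 0.204% of its gene's reads in treated and 0.327 ± 0.164% in vehicle cells, and PSMB7-201 held 97.4 ± 0.255% and 99.0 ± 0.138%. PSMA6-202 held 1.54 ± 0.512% in treated cells and was listed at 0 in every vehicle library, and PSMA6-216 held 0.266% and 0.567% on average. PSME3-202 averaged 3.35% in treated and 5.6% in vehicle cells, where vehicle replicate 2 held 13.8%. In PSMC6, PSMC6-206 averaged 1.09% in treated and 0.305% in vehicle cells, and PSMC6-212 averaged 0.103% and 2.48%, where vehicle replicate 2 held 8.44%. PSMC2-204 held 1.09, 0, 1.31 and 1.06% in treated cells and 9.26, 0.444, 0 and 0.468% in vehicle cells, and vehicle replicate 2 alone put its vehicle mean above the treated mean.

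**Figure D5:**
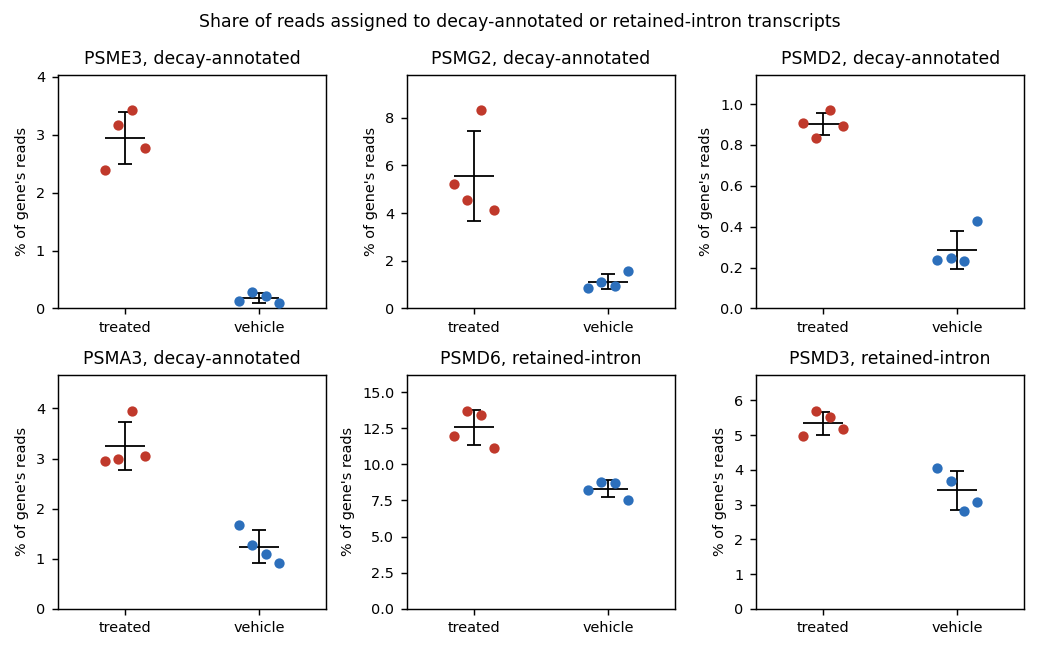
Share of a gene's reads on decay-annotated transcripts (PSME3, PSMG2, PSMD2, PSMA3) and on retained-intron transcripts (PSMD6, PSMD3), in percent, treated libraries left and vehicle libraries right; black marks are the mean ± SD (n = 4 each). In all 6 panels every treated library lies above every vehicle library.

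Partners of the proteasome outside the symbol rule include the transcription factors above it and the ubiquitin genes. Of 31 tested companion genes 15 were higher and 6 lower, which is 67.7%, beside 59.2% of coding genes. With library totals alone 11 were higher and 9 lower, where 23.0% of coding genes were higher and 35.0% lower. NFE2L2, the stress-activated relative of NFE2L1, had the largest rise, with 167, 164, 181 and 185 CPM in treated cells against 83.7, 67.5, 69.7 and 68.4 CPM in vehicle cells. The groups lay far apart (log2 fold change 1.27, SE 0.08, adjusted p = 1.08e-06, edgeR). NFE2L1, which drives subunit genes, had 250, 244, 251 and 226 CPM in treated cells and 154, 137, 148 and 149 CPM in vehicle cells, again without overlap. Its log2 fold change was 0.72 (SE 0.06, adjusted p = 6.51e-06), but 0.25 with an offset for transcript length (adjusted p = 0.446) and 0.30 on the TPM scale (adjusted p = 0.231). On that scale it had 117, 116, 116 and 115 TPM in treated cells against 150.2, 72.0, 84.4 and 86.0 TPM in vehicle cells, so the groups overlapped through vehicle replicate 2.

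The deubiquitinase UCHL5, which trims chains at the 19S cap, had the largest fall. It had 29.3, 30.0, 31.7 and 35.5 CPM in treated cells against 63.0, 50.5, 50.8 and 50.1 CPM in vehicle cells, with no overlap (log2 fold change -0.76, SE 0.10, adjusted p = 7.99e-05, edgeR). Its receptor at the cap, ADRM1, was higher by 0.28, but the groups overlapped and the call was lost under 10 of 18 alternatives, among them leaving out vehicle replicate 2 (adjusted p = 0.0567). Of 14 associated proteins, 8 were higher and 2 lower: the arsenite-inducible ZFAND2A rose by 1.10, UBE3C by 0.38, TXNL1 by 0.33, FBXO7 by 0.30, AKIRIN2 by 0.30, ZFAND5 by 0.29 and PITHD1 by 0.23, and PAAF1, a chaperone of the base, fell by 0.61. The rise of ZFAND2A and the fall of PAAF1 kept their call under all 18 alternatives. PITHD1 lost its call under 3 of them, ZFAND5 under 2, and UBE3C, TXNL1, FBXO7 and AKIRIN2 under 1 each. Among shuttle factors, which carry tagged proteins to the particle, RAD23B rose by 0.33 and UBQLN4 fell by 0.34. The fall of UBQLN4 held under all 18 alternatives. RAD23B had 0.03 with the length offset and 0.03 on the TPM scale, and its call was lost under both.

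NGLY1, which removes sugars from NFE2L1 and lets it act, fell by 0.39. Of the 3 genes of the p97 segregase, which extracts proteins for degradation, UFD1 had a log2 fold change of 0.36 that turned to -0.11 with the length offset and -0.16 on the TPM scale. Among genes for ubiquitin and its activating enzymes, RPS27A, which encodes ubiquitin fused to a ribosomal protein, rose by 0.38. The activating enzyme UBA1 fell by 0.31. RPS27A lost its call with library totals alone (adjusted p = 0.107, edgeR) and with limma on TPM, with or without vehicle replicate 2. UBA1 lost its call with limma on TPM over all 8 libraries. UBB, another ubiquitin gene, was listed at 31, 9, 7 and 8 reads in treated and 10, 2, 3 and 3 reads in vehicle libraries and was not tested. It is not known whether these counts reflect the level of UBB or a failed estimate.

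NFE2L1 and NFE2L2 bind the antioxidant response element, whose core is TGACNNNGC. The 250 bases before RefSeq gene starts on GRCh38.p14 were searched for it on both strands. The table matched 43 of 49 members, with 52 starts, and 13 of the starts (25.0%) held the core, beside 11.2% of 21573 coding starts. CCAAT was found before 36.5% of member starts and 33.0% of coding starts, and TATAAA before 9.62% and 8.96%. Of the 14 called members that matched, 3 held the core: PSMC5 and PSMG2, which rose, and PSMG1, which fell. Their windows of 29 bases are shown with those of PSMB3 and PSMD3, which were not called, so that the site can be compared between members that rose, fell or did not pass. Each is written 5′ to 3′ on the gene's strand, and capitals mark the core.
PSMC5 (chr17:63827654-63827682, plus strand, core on the opposite strand, 57 bases before the start, downstream of the gene's other listed start): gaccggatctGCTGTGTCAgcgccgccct
PSMG2 (chr18:12658689-12658717, plus strand, 39 bases before the start): cagtttcccgTGACCCCGCggccgctctg
PSMG1 (chr21:39183616-39183644, minus strand, 183 bases before the start): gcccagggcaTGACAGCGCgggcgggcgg
PSMB3 (chr17:38752627-38752655, plus strand, 104 bases before the start): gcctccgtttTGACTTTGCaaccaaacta
PSMD3 (chr17:39980760-39980788, plus strand, 37 bases before the start): tcccctttgtTGACTCGGCcatcggcctg
By the gene spans given above, the windows of PSMC5 and PSMG1 lie inside the gene, past its outermost start. A match describes these letters, and binding was not measured. The other starts with the core belonged to PSMA4, PSMB9, PSMD12, PSMD5, PSMD9, PSME1, PSME2 and PSME4, none of them called.

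The authors' deposited table of the same comparison listed 44 members, 8 of them higher and 4 lower at its FDR of 0.05, beside 28.1% higher and 29.6% lower among its 12898 rows. All 12 were called here in the same direction, and no member had the opposite sign. PSMG2, PSMG4 and PSMD6, called here, had FDRs of 0.0700, 0.0617 and 0.0879 in the authors' deposited table.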

How the data were processed

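RNA (1.3 µg per library, KAPA mRNA HyperPrep) was sequenced from 8 cultures. The deposited tables hold expected counts and TPM per gene and transcript for each library, on hg38. HISAT2, SAMtools and StringTie are named in the submitters' processing notes, without role or version. The quantifier and its strand setting were not given in the sources used here. A comparison table of coding genes that the authors deposited holds log2 fold changes, p-values and FDR beside a signal per library whose unit the file headers do not give. That signal and 8 FPKM columns of a table of non-coding genes were not used.

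Gene symbols came from a reference list of gene IDs, for 62684 of 62826 genes. Gene types, positions and transcript names came from GENCODE release 29, which gave a gene type by ID for 58262 genes. Expected counts were rounded to whole numbers and tested with edgeR 4.0.16 (R 4.3.3; filterByExpr, TMM, quasi-likelihood F-test, Benjamini-Hochberg adjustment over 19785 genes, threshold 0.05). SE is the size of the log2 fold change over the root of F. TPM were tested as log2(TPM + 1), and shares of transcripts (at least 10 reads in at least 4 libraries, 0.5 added) as log2, with limma 3.58.1. The other alternatives were DESeq2 1.42.0, RLE factors, no filter, a length offset, coding genes only, a replicate block, added pseudogene reads and leaving out each library. The tests were checked on simulated data. There edgeR recovered 6 of 100 genes changed by a log2 size of 0.3, and 93 of 100 changed by 1. Few genes were changed in the simulation and many were called in the data, so these rates do not carry over to the members. At a log2 size of 1.5, limma on the share of each transcript recovered 15 of 200 genes, and diffSpliceDGE made many false calls.

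The members, companion list, markers and tests were chosen with earlier results of these data known. Every member is named. Some companion genes are not reported here by name. Values in every library are given for the 5 largest called rises and falls, the catalytic subunits and their inducible counterparts, POMP, the member with the smallest adjusted p of each other role, NFE2L1, and the largest rise and fall among companions. PSMG2 and PSMD6 were added after their values were seen. Same-numbered libraries correlated at -0.08 to 0.03 in their deviations, and the main test did not pair them. A low correlation cannot tell whether they shared a differentiation, so counts with the number as a block are given as well. No 2 libraries were duplicates.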

Additional observations from a re-analysis of the deposited data

Results flagged for a closer look

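In groups of 4 libraries, a highest or lowest value was marked when its gap to the next took more of the group's range than Dixon's critical value for 4 values allows. Of 150 groups from 75 genes 24 were marked, where chance marks about 1 in 20, and 15 of the 24 lay in vehicle replicate 2. In that library 9 members were marked as low in CPM, PSMD14 at 74.6, PSMA1 78.9, PSMA2 38.8, PSMA7 58.4, PSMB4 83.7, PSMB5 54.0, PSMB6 32.5, PSMB7 84.0 and PSMD9 30.7. Among companions it was high for NFE2L2 (83.7 CPM), UFD1 (57.9 CPM), SEM1 (42.8 CPM), UCHL5 (63.0 CPM) and UBQLN4 (95.3 CPM), and low for VCP (326 CPM).

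Treated replicate 5 was marked as high for PSMD1 (164 CPM), PSMD14 (96.7 CPM) and POMP (96.6 CPM), and low for ADRM1 (45.1 CPM) and UBA1 (453 CPM). Treated replicate 3 was low for PSMD2 (252 CPM), PSMB7 (89.4 CPM) and PSMG1 (16.9 CPM). Vehicle replicate 3 was high for ZFAND5 (252 CPM). Counts per pair of libraries differed beyond counting noise in every pair, with a chi-square per degree of freedom of 312 to 435 for vehicle replicate 2 against the others of its group and 14.0 to 39.8 among those others.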

How the results depend on the processing

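Over 1350 combinations of a gene and an alternative, the direction and the side of the threshold were kept in 1224, the call was lost in 75 and gained in 46, and the sign turned in 5. The 9 members higher became 1 with library totals alone, 0 with limma on TPM and 2 with limma on TPM without vehicle replicate 2, a setting added after the data were seen, which also gave 14 lower in place of 6 (23.9% of coding genes were higher and 45.4% lower there). With that last setting PSMB4 turned to -0.15, PSMB5 to -0.12 and UFD1 to -0.17. UFD1 was also -0.11 with the length offset and -0.16 with limma on TPM. Companions higher were 4 with limma on TPM and 9 with limma on TPM without vehicle replicate 2, which gave 15 lower. Leaving out 1 library gave 8 to 11 members higher and 4 to 8 lower, and 13 to 15 companions higher and 6 to 8 lower. Of coding genes, 26.5% were higher and 25.2% lower without treated replicate 4, and 32.9% and 32.2% without vehicle replicate 2. The coding shares without each other library are not given here. The replicate block gave 9 members higher and 5 lower, and 14 and 7 companions, beside 28.2% and 27.2% of coding genes. Members called by diffSpliceDGE numbered 12 by its gene-level test, 2 to 6 without 1 library, and 19 by limma on shares. Of 11746 genes, the main diffSpliceDGE test called 8.61% and limma on shares 34.3%. The limma transcript tests were added after the data were seen. Members with a changed transcript share numbered 10 with the replicate block, beside 11.9% of genes, and 13 to 22 without 1 library. Members with a changed retained-intron share numbered 2 to 8 without 1 library (8 without vehicle replicate 2, beside 25.5% of coding genes). Shares over all genes for the gene-level test and the other left-out libraries are not given here, so those counts have no background to be read against. Adding pseudogene reads left 9 higher and 6 lower. The cause of these shifts was not tested. Low counts limited the 5 untested members.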

Other observations

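Genes beside the members moved as well. The antisense gene PSMG3-AS1 had 8.36 CPM in treated and 17.9 CPM in vehicle cells (log2 fold change -1.1, adjusted p = 0.000157, edgeR), and it shares 933 bases with PSMG3, which did not pass the test. PSMA3-AS1 fell by 0.33 (adjusted p = 0.00793), and PSMA3 had -0.14 without passing. PSMD6-AS2 had 1.44 CPM in treated and 0.841 CPM in vehicle cells (0.78, adjusted p = 0.00663), while PSMD6, on the opposite strand, fell by 0.16. PSMC3IP, a recombination factor that shares only its name with PSMC3, rose by 0.42 (adjusted p = 0.00663).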
